A study of Monodelphis domestica and Mus musculus with 2 samples.

Results

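Flt1, Cldn5, Pecam1, Bsg, Slc2a1, Dcn, Lum and Slc47a1, 8 genes of blood vessels and meninges, were followed across spatial transcriptomes that hold the visual cortex of a gray short-tailed opossum (Monodelphis domestica) and of a laboratory mouse. The genes were chosen by symbol, ignoring case. All 8 were found among the 61317 mouse features. Of the 30613 opossum features, 6 matched, and no opossum feature carried the symbol PECAM1 or BSG, so these genes have no opossum value here. Only 11598 opossum features had a symbol other than their identifier, and the others could not be searched by name.

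The data are Stereo-seq, in which RNA from a frozen section is captured on a chip of barcoded spots, counted as unique molecular identifiers (UMIs) and summed over segmented cells. There was 1 section of 10 µm per species, from an adult male opossum of about 6 months with no stated genotype and from an adult male wild-type C57BL/6J mouse at about postnatal day 40. RNA integrity numbers were 7.1 in the opossum and above 9 in the mouse. The opossum slices were trimmed beside and below primary visual cortex (V1) before freezing, and the mouse slices were not. With 1 animal per species there is no replicate, so no test was made, the species are set side by side only, and the intervals given are exact 95% intervals that cover counting error only.

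After removal of cells with fewer than 50 genes or 100 UMIs, 79337 opossum cells (4806 in 3 V1 regions, 74531 outside) and 120008 mouse cells (9127 in 4 V1 regions, 110881 outside) remained, with no cell barcode shared between the files. Opossum cells had a median of 1326 UMIs inside and 850 outside V1, and mouse cells had 1305 and 1120. The V1 regions of a section come from the same animal and are not replicates. They begin at the top of layer 2/3 or its opossum counterpart, so they leave out layer 1 and the brain surface. Levels are UMIs of a gene per 10000 UMIs of the cells named. Since they are sums over cells, fewer cells of a type and less RNA per cell cannot be told apart.

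Brain capillaries are lined by endothelial cells joined by tight junctions, which form the blood-brain barrier and carry glucose and other nutrients into the tissue through transporters. The meninges that cover the brain hold fibroblasts, which lay down collagens and proteoglycans and also follow larger vessels below the surface. Flt1 encodes a receptor for vascular endothelial growth factor, Cldn5 the tight junction protein claudin-5, Pecam1 an adhesion protein of endothelial junctions, Bsg the membrane protein basigin, which many cell types make, and Slc2a1 the glucose transporter GLUT1. Dcn and Lum encode the small leucine-rich proteoglycans decorin and lumican, which bind collagen, and Slc47a1 encodes an exporter of organic cations.

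In the mouse genome (GRCm39) Flt1 (ENSMUSG00000029648) lies on chromosome 5 from 147498414 to 147662826, Cldn5 (ENSMUSG00000041378) on chromosome 16 from 18595597 to 18597012, and Slc2a1 (ENSMUSG00000028645) on chromosome 4 from 118965908 to 118996365. Pecam1 lies on chromosome 11 from 106543689 to 106641454 and Slc47a1 on the same chromosome from 61234226 to 61269171. Bsg lies on chromosome 10 from 79540143 to 79547821. Dcn (97315275 to 97358155) and Lum (97400990 to 97408577) are neighbours on chromosome 10 and the same strand, 42834 bases apart with 0 annotated genes between them. Flt1 overlaps the antisense RNAs Gm72610 and Gm72626, and Slc2a1 overlaps Gm12867 and Gm12868. Whether counting used strand is not given in the sources used here, so reads of these genes and of their antisense partners cannot be told apart. The opossum features were FLT1 (ENSMODG00000009128), CLDN5 (ENSMODG00000050792), SLC2A1 (ENSMODG00000017148), DCN (ENSMODG00000009654), LUM (ENSMODG00000009667) and SLC47A1 (ENSMODG00000011054).

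The genes formed different patterns across the sections. Cldn5, like Flt1 and Slc2a1, was found all over both sections. DCN, LUM and SLC47A1 of the opossum had their highest levels at the rim of the tissue, whereas mouse Dcn followed a curved band inside the tissue. In tiles of 100 µm with at least 5000 UMIs, the 33 of 3269 opossum tiles with the highest level of a gene held 15.1% of the UMIs of DCN, 20.3% of those of LUM and 34.9% of those of SLC47A1. The corresponding shares were 4.10% for FLT1, 6.22% for CLDN5 and 2.66% for SLC2A1. In the mouse the top 40 of 3996 tiles held 20.9% of Dcn, 32.6% of Lum and 43.0% of Slc47a1 UMIs, against 3.15% for Flt1, 3.55% for Cldn5, 6.61% for Pecam1, 2.78% for Slc2a1 and 0.783% for Bsg. Rare genes fill few tiles by counting alone, since Slc47a1 had only 238 UMIs in the opossum tiles and 223 in the mouse tiles. Dcn and Cldn5 had similar totals in the opossum tiles, 2004 and 2090 UMIs, and the share in the top tiles was higher for DCN.

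**Figure D1:**
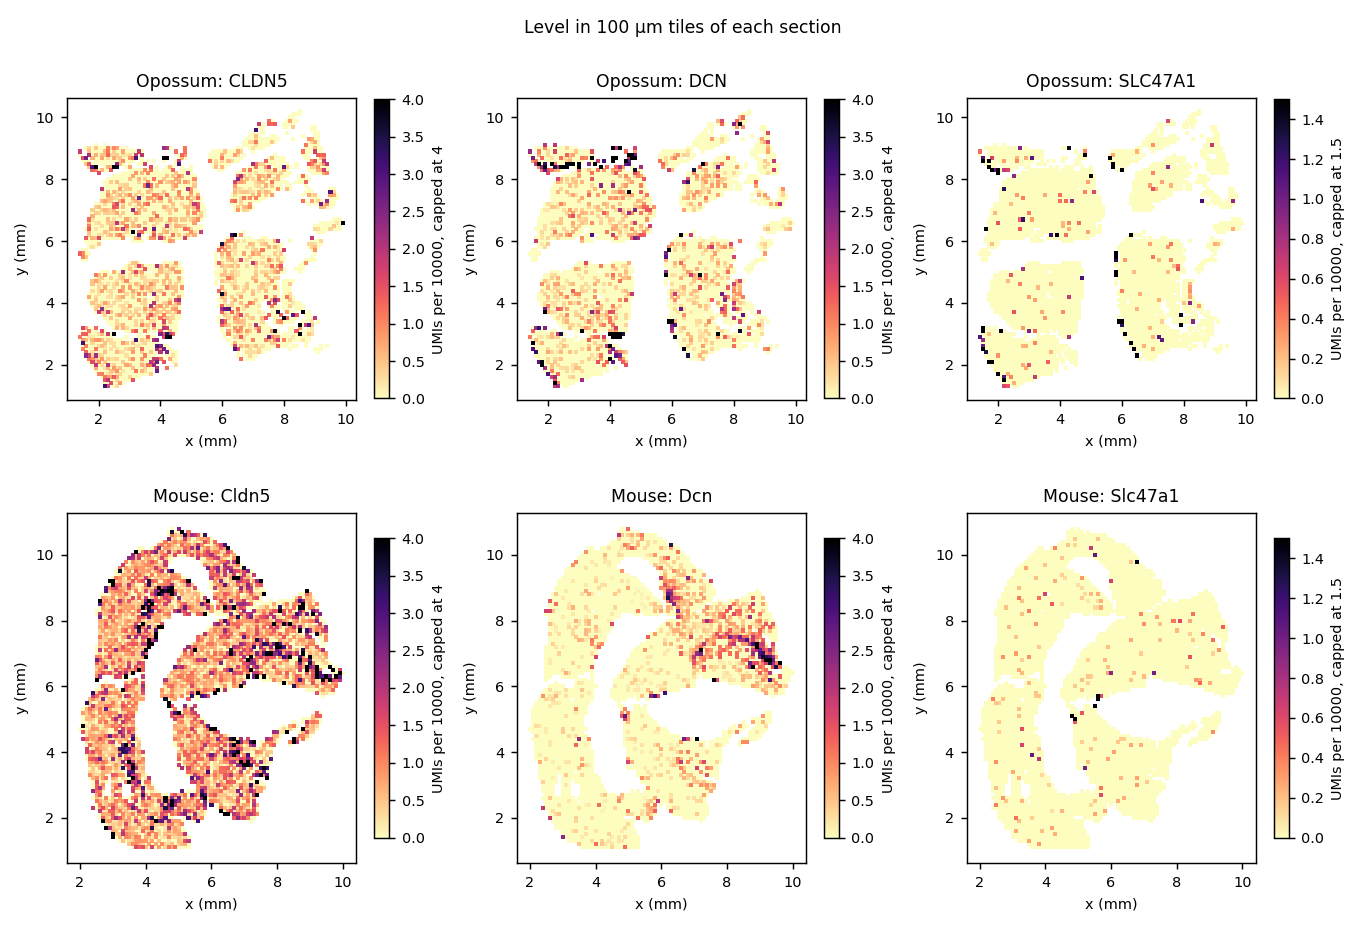
Level of Cldn5, Dcn and Slc47a1 in 100 µm tiles of the opossum section (top) and the mouse section (bottom), with x and y in mm and color giving UMIs per 10000 UMIs, capped at the value on each bar. Opossum DCN and SLC47A1 are high in tiles at the rim of the tissue, mouse Dcn is high along a curved band inside the tissue, and Cldn5 has UMIs all over both sections.

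The first comparison asked which V1 cells carried the genes, by the subclass labels that the study gave each cell through nearest neighbors in a single-nucleus atlas of the same species. These labels were made from the same transcriptomes, so the levels describe the labeled cells and test nothing. The endothelial label was held by 65 opossum cells (1.35% of V1 cells, median 936 UMIs) and 255 mouse cells (2.79%, median 1156 UMIs). A subclass label of any kind was held by 4564 of 4806 opossum and 7653 of 9127 mouse V1 cells. Cells with no subclass label are counted among the other V1 cells. The opossum atlas had no vascular and leptomeningeal cells. In the mouse 13 cells carried that label (VLMC), with 0 UMIs of Flt1, Cldn5, Pecam1, Slc2a1, Dcn, Lum and Slc47a1 and 5 UMIs of Bsg. These 13 cells allow up to 2.42 UMIs per 10000 at a count of 0, so an absence of Dcn and Lum from them could not be shown at this depth.

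Flt1, Cldn5 and Slc2a1 were higher in endothelial-labeled cells in both species. In the mouse, Flt1 was at 2.16 (1.67 to 2.75) in these cells and 0.373 (0.340 to 0.409) in the other V1 cells, a ratio of 5.78 (4.40 to 7.5). Cldn5 was at 2.26 (1.76 to 2.85) against 0.605 (0.562 to 0.650), a ratio of 3.73 (2.87 to 4.78). Slc2a1 was at 2.09 (1.61 to 2.67) against 0.548 (0.507 to 0.591), a ratio of 3.82 (2.91 to 4.94). The intervals of the labeled and the other cells did not overlap for any of these genes. Basigin transcripts differed less, at 5.82 (5.0 to 6.74) against 4.29 (4.17 to 4.40), a ratio of 1.36 (1.16 to 1.58). Pecam1 rested on 3 UMIs in the endothelial-labeled cells and its ratio of 1.21 (0.245 to 3.64) was not resolved.

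Across the 4 mouse V1 regions the levels in endothelial-labeled cells were 2.27, 1.45, 1.51 and 3.26 for Flt1, and 2.51, 2.17, 2.14 and 1.95 for Cldn5. Slc2a1 was at 1.94, 3.38, 2.65 and 0.814, the last on 5 UMIs. Cldn5 was thus nearly even over the regions, while Slc2a1 and Flt1 ranked the fourth region last and first. The 58 mouse cells that received the label in the first round of classification had ratios of 7.70 for Flt1 and 5.20 for Cldn5, above those of all 255 cells.

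In the opossum the same genes were higher in endothelial-labeled cells, on few UMIs. FLT1 was at 1.47 (0.706 to 2.71; 10 UMIs) against 0.551 (0.496 to 0.609) in the other V1 cells, a ratio of 2.67 (1.27 to 4.97). CLDN5 was at 1.03 (0.414 to 2.12; 7 UMIs) against 0.239 (0.204 to 0.278), a ratio of 4.31 (1.71 to 9.09). SLC2A1 was at 3.83 (2.50 to 5.6; 26 UMIs) against 1.35 (1.27 to 1.44), a ratio of 2.83 (1.84 to 4.17). All 3 intervals of the ratio lay above 1. Of the SLC2A1 UMIs in these cells 8, 17 and 1 came from the 3 regions, and without the second region the ratio was 1.57. Against the other non-neuronal cells only, the ratios were 1.73 for FLT1, 2.07 for CLDN5 and 1.58 for SLC2A1, so CLDN5 alone stayed past 2-fold. The FLT1 ratio was 5.20 after thinning to 300 UMIs, which rests on at most the 10 UMIs above and has no interval.

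By the 2-fold rule, 3 of the 8 mouse genes (Flt1, Cldn5 and Slc2a1) were higher in endothelial-labeled cells, where 5.6% of the 13619 genes with at least 50 UMIs in V1 were. Of the 6 opossum genes 4 passed, where 10.8% of 10751 genes did. The fourth opossum gene was DCN, at 2.08 (0.249 to 7.73) on 2 UMIs, both from the first region, so its ratio was 0 without that region. With the interval also required to lie above 1, the backgrounds were 2.83% in the mouse and 4.08% in the opossum. Dcn, Lum and Slc47a1 had 0 UMIs in the mouse endothelial-labeled cells, which allows up to 0.0981 per 10000 each, and LUM and SLC47A1 had 0 in the opossum cells, which allows up to 0.441. Lum and Slc47a1 in both species and Dcn in the mouse did not reach 50 UMIs in V1 and were not counted against the background.

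**Figure D2:**
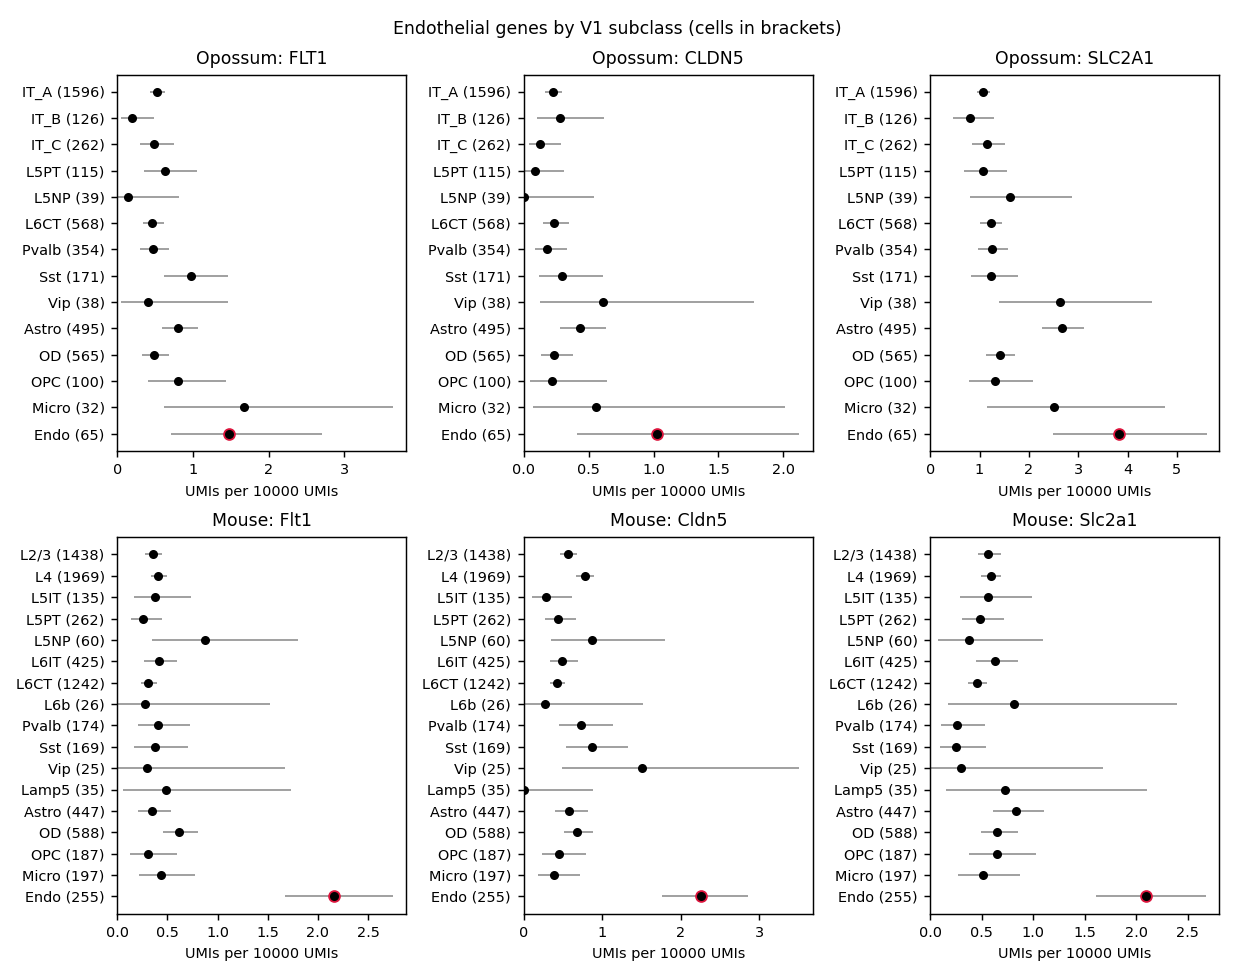
UMIs per 10000 UMIs (x axis) of Flt1, Cldn5 and Slc2a1 in each V1 subclass with at least 25 cells, cell numbers in brackets, for the opossum (top) and the mouse (bottom); points are summed levels, bars exact Poisson 95% intervals, and the endothelial label is in red. The mouse endothelial points, at 2.16, 2.26 and 2.09, lie to the right of every other subclass, and the opossum microglial point for FLT1 lies at 1.67, beyond the endothelial 1.47.

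Among the mouse subclasses the endothelial label had the highest point for all 3 genes, but small subclasses overlapped it. The 25 Vip cells had a Cldn5 level of 1.5 (0.488 to 3.51), and the 60 L5NP cells had a Flt1 level of 0.873 (0.351 to 1.80). In the opossum the order was less clear. FLT1 was at 1.67 (0.614 to 3.64) in the 32 microglia-labeled cells, and SLC2A1 was at 2.67 (2.27 to 3.11) in 495 astrocytes and 2.63 (1.40 to 4.50) in 38 Vip cells, all overlapping the endothelial interval. The opossum astrocyte SLC2A1 level was above that of the IT_A neurons, at 1.07 (0.941 to 1.21). In the mouse, Slc2a1 was at 0.830 (0.608 to 1.11) in astrocytes and 0.544 (0.496 to 0.595) in glutamatergic neurons.

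The endothelial label held a small share of the vascular transcripts. It held 12.6% (9.92 to 15.8) of the Flt1 UMIs of mouse V1, 8.54% (6.70 to 10.7) of Cldn5, 8.73% (6.79 to 11) of Slc2a1, 3.29% (2.83 to 3.80) of Bsg and 2.94% (0.611 to 8.36) of Pecam1, while these cells held 2.44% of all UMIs. In the opossum the shares were 2.58% (1.24 to 4.69) for FLT1, 4.09% (1.66 to 8.25) for CLDN5 and 2.73% (1.79 to 3.97) for SLC2A1, with 0.980% of all UMIs. Most UMIs of these endothelial genes were therefore assigned to V1 cells without the endothelial label, which include cells with no subclass label. Capillaries run between and over neurons in a section. A UMI assigned to a segmented cell need not come from that cell, and an endothelial cell may lack the label. The part of either in these shares was not tested. In mouse V1, 19.2% (14.6 to 24.6) of endothelial-labeled cells had a Cldn5 UMI, against 5.89% (5.32 to 6.51) of glutamatergic neurons, at median depths of 1156 and 1325 UMIs. With each cell thinned to 300 UMIs the shares were 5.71% (3.16 to 9.40; 245 cells) and 1.56% (1.26 to 1.90; 6173 cells). In the opossum 7.69% (2.54 to 17.0) of endothelial-labeled cells and 2.77% (2.27 to 3.35) of glutamatergic neurons had a CLDN5 UMI, and after thinning 4.76% (0.993 to 13.3; 63 cells) and 1.08% (0.766 to 1.47; 3624 cells). The intervals of the mouse shares did not overlap at either depth, while those of the opossum shares did at both. For SLC2A1 the share was 20.0% (11.1 to 31.8) in opossum endothelial-labeled cells, 20.4% (16.9 to 24.2) in astrocytes and 12.5% (11.4 to 13.6) in glutamatergic neurons.

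Other endothelial genes, from a list of 28 without the members, moved the same way in the mouse. Of the 25 mouse genes with enough UMIs, 17 were at least 2-fold higher in endothelial-labeled cells and 0 lower, with a median ratio of 2.82 beside 0.974 over all genes. In the opossum 11 of the 28 could be measured, of which 2 were higher and 2 lower, with a median of 1.59 beside 0.871 over all genes. Over all genes with at least 50 UMIs in V1, 10.8% were 2-fold higher and 31.8% lower in the opossum. The mouse shares were 5.6% higher and 13.3% lower. Most UMIs of the opossum list came from PLTP, a phospholipid transfer protein (ratio 0.892, 0.242 to 2.30), TJP1, a tight junction scaffold (1.56, 0.670 to 3.10), and the amino acid transporter SLC7A5 (1.10, 0.403 to 2.42). In the mouse, Slco1c1, a thyroid hormone transporter of brain capillaries, was at 2.17 (1.40 to 3.22).

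Markers of mural cells, which wrap the vessels, were also higher under the endothelial label. Their summed level was 4.02 against 1.40 in the mouse, with 5 of 8 measured genes past 2-fold, and 4.56 against 1.84 in the opossum, with 2 of 4. Over all genes the shares 2-fold higher were 5.6% in the mouse and 10.8% in the opossum. The pericyte gene Rgs5 had a ratio of 3.43 (2.56 to 4.51) in the mouse and 3.40 (1.92 to 5.57) in the opossum. General neuronal markers were near their level in the other cells, with a sum of 48.2 against 53.6 in the mouse and 65.9 against 64.7 in the opossum. Of the 65 opossum endothelial-labeled cells 10 had a UMI of CLDN5 or FLT1, and of the 255 mouse cells 83 did. The part of mural and neuronal RNA in the levels above was not tested.

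The second comparison followed the genes through the depth of V1. In the opossum FLT1 and CLDN5 were higher in the upper cortex. CLDN5 was at 0.443 (0.301 to 0.628) in the top bin of 10, between 0.269 and 0.326 in the next 6 bins, and at 0.146, 0.123 and 0.0754 in the lowest 3 bins. Its level in the upper 5 bins was 0.322 (0.262 to 0.391) and in the lower 5 bins 0.184 (0.144 to 0.233), a ratio of 1.75 (1.27 to 2.40). The ratio was 1.90 (1.06 to 3.45), 1.67 (1.07 to 2.64) and 1.79 (0.832 to 4.01) in the 3 regions. Between the upper 3 and the lower 3 bins it was 3.01, past the 2-fold rule. The CLDN5 point was thus lower in the lower 5 bins of each opossum region, though the interval of the third region included 1. It was lowest in the deepest 3 bins of the regions together.

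FLT1 ran from 0.842 (59 UMIs) in the top bin to 0.327 (26 UMIs) in the bottom bin. Its ratio of upper to lower cortex was 1.52 (1.24 to 1.87), from 0.688 against 0.453. In the regions it was 1.41 (0.9996 to 1.99), 1.65 (1.18 to 2.32) and 1.46 (0.960 to 2.22). SLC2A1 was flatter, at 1.52 against 1.26, a ratio of 1.21 (1.06 to 1.38). DCN was at 0.156 against 0.132, a ratio of 1.19 (0.783 to 1.79), with regional ratios of 0.764, 2.18 and 1.23 that lay on both sides of 1.

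**Figure D3:**
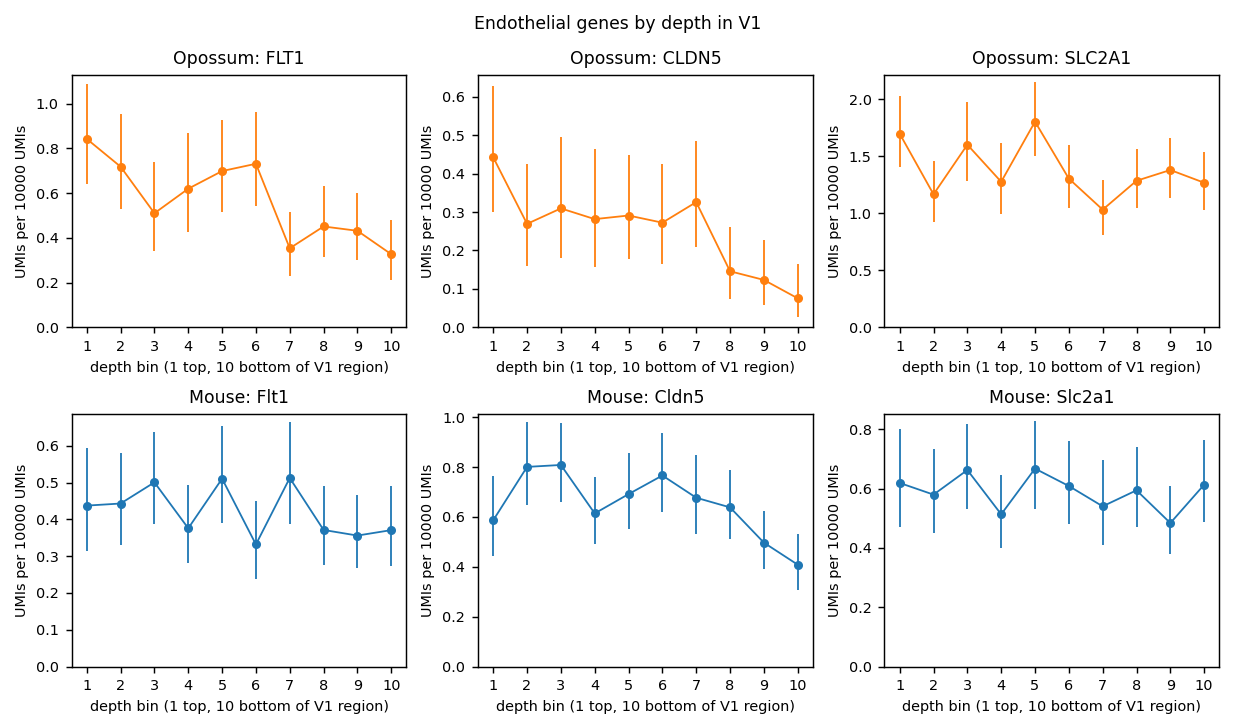
UMIs per 10000 UMIs (y axis) of Flt1, Cldn5 and Slc2a1 in 10 equal bins of depth through the V1 regions (x axis, 1 at the top), for the opossum (top) and the mouse (bottom); bars are exact Poisson 95% intervals. Opossum CLDN5 falls from 0.443 to 0.0754 and FLT1 from 0.842 to 0.327, mouse Cldn5 is lowest in the bottom bin at 0.409, and mouse Slc2a1 stays between 0.484 and 0.667.

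Mouse Cldn5 was also lowest in the deepest bins. It was at 0.587 in the top bin, 0.801 and 0.809 (0.661 to 0.979) in the next, and 0.497 and 0.409 (0.307 to 0.533) in the lowest, with a ratio of upper to lower cortex of 1.19 (1.04 to 1.37). Flt1 had a ratio of 1.18 (0.990 to 1.41), Slc2a1 of 1.07 (0.923 to 1.24), Bsg of 0.975 (0.924 to 1.03) and Pecam1 of 1.49 (0.988 to 2.26). The intervals of all but Cldn5 included 1. In both species 0 members with enough UMIs were 2-fold higher or lower. Of all opossum genes tested 1.75% were 2-fold higher in the upper cortex and 1.66% lower, and of the mouse genes 1.71% were higher and 1.2% lower. The median ratio over all genes was 0.982 for the opossum, with 1.00 for the mouse.

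Cells with the endothelial label were unevenly spread over the depth. The label was held by 2.10% of the cells in the top opossum bin, 2.08% in the fifth and 0.407% in the bottom bin, and by 2.55%, 2.48% and 2.75% of the mouse cells in these bins, with a mouse maximum of 5.30% in the seventh bin. Median UMIs per cell also changed with depth, from 1163 in the upper to 1516 in the lower opossum cortex, with 1175 and 1506 for mouse cells. The oligodendrocyte list moved the opposite way to CLDN5, with a summed level of 26.9 in upper and 52.3 in lower opossum cortex and 19.2 and 36.0 in the mouse. The part of depth of sequencing and of oligodendrocyte RNA in these profiles was not tested.

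The third comparison set the cells outside V1 against those inside. Endothelial genes differed little. In the opossum FLT1 was at 0.784 outside and 0.560 inside, a ratio of 1.40 (1.26 to 1.56), SLC2A1 at 1.60 and 1.38, a ratio of 1.16 (1.09 to 1.24), and CLDN5 at 0.259 and 0.247, a ratio of 1.05 (0.899 to 1.24). In the mouse the ratios were 1.15 (1.05 to 1.26) for Flt1, 1.2 (1.11 to 1.29) for Cldn5, 1.08 (0.884 to 1.34) for Pecam1, 1.02 (0.991 to 1.05) for Bsg and 1.02 (0.942 to 1.10) for Slc2a1. The median ratio over all opossum genes was 1.08 and over all mouse genes 1.03. Within V1, CLDN5 was at 0.196, 0.303 and 0.233 in the 3 opossum regions and Cldn5 at 0.571, 0.611, 0.710 and 0.741 in the 4 mouse regions.

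Dcn, Lum and Slc47a1, grouped here as meningeal genes by name only, were rare inside V1 and higher outside. Mouse Dcn was not concentrated at the tissue edge, as given below. Mouse Dcn was at 0.167 (0.160 to 0.174; 2261 UMIs) outside and 0.0343 (0.0249 to 0.0463; 43 UMIs) inside, a ratio of 4.87 (3.60 to 6.74). Mouse Lum had 229 UMIs outside and 7 inside, a ratio of 3.03 (1.45 to 7.61), and Slc47a1 216 and 8, a ratio of 2.50 (1.25 to 5.86). All 3 passed the 2-fold rule, where 2.44% of 18496 mouse genes with at least 200 UMIs did. In the opossum DCN was at 0.258 (0.247 to 0.269; 2000 UMIs) outside and 0.143 (0.116 to 0.174; 99 UMIs) inside, a ratio of 1.81 (1.48 to 2.23). LUM had 563 UMIs outside and 30 inside, a ratio of 1.68 (1.16 to 2.51), and SLC47A1 240 and 9, a ratio of 2.38 (1.23 to 5.28). Of the opossum genes SLC47A1 alone passed the rule, where 7.13% of 14693 genes did, and its ratio was 1.82 without the second V1 region, 1.85 without the first, when DCN passed at 2.16, and 4.30 without the other. After thinning to 300 UMIs the ratios were 1.26 for SLC47A1 and 6.55 for LUM in the opossum and 7.65 for mouse Dcn, which rest on very few UMIs inside V1.

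With the outside cells limited to those over 200 µm from the tissue edge, the opossum ratios were 1.23 for DCN, 1.02 for LUM and 1.23 for SLC47A1, so 0 passed. In the mouse the ratios with the same limit were 5.07 for Dcn, 2.96 for Lum and 2.18 for Slc47a1, all past 2-fold. The excess outside V1 was thus smaller away from the edge in the opossum, while the mouse ratios stayed within their intervals. Of the fibroblast and meningeal list of 29 genes, 9 of 14 measured were 2-fold higher outside V1 in the opossum (median 2.47) and 8 of 23 in the mouse (median 1.73), with 0 lower in either. Oligodendrocyte markers were also higher outside, at 101 against 40.8 in the opossum and 41.8 against 27.9 in the mouse.

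**Figure D4:**
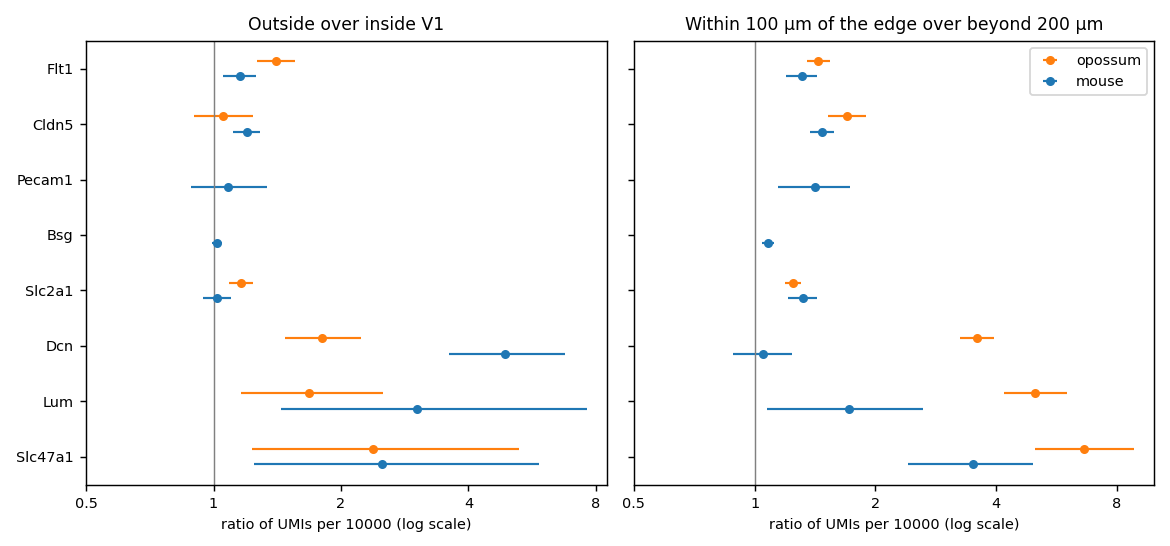
Ratio of UMIs per 10000 UMIs (log scale) outside over inside V1 (left) and within 100 µm of the tissue edge over beyond 200 µm (right) for each gene, in the opossum (orange) and the mouse (blue); bars are exact 95% intervals for counting error. Mouse Dcn is at 4.87 outside V1 and 1.05 at the edge, while opossum DCN is at 1.81 and 3.59.

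Distance from the tissue edge was then measured for the cells outside V1, on a mask drawn from cell positions alone, whose edge can be the brain surface, a cut face or a tear. In the opossum the meningeal genes had their highest levels at the edge. SLC47A1 was at 0.164 (0.133 to 0.201) within 50 µm of the edge, 0.0525 (0.0362 to 0.0738) between 50 and 100 µm, and 0.0149 (0.0110 to 0.0199) beyond 400 µm. LUM was at 0.264 (0.224 to 0.310), 0.181 (0.150 to 0.218) and 0.0448 (0.0377 to 0.0529) in these bands, and DCN at 0.765 (0.696 to 0.840), 0.505 (0.451 to 0.563) and 0.168 (0.154 to 0.183). The outermost 50 µm held 7.46% of the UMIs of these cells and 39.6% of SLC47A1, 27.2% of LUM and 22.2% of DCN UMIs. Levels within 100 µm over those beyond 200 µm gave ratios of 6.64 (5.01 to 8.85) for SLC47A1, 5.01 (4.19 to 6.00) for LUM and 3.59 (3.26 to 3.96) for DCN, all past 2-fold, where 3.94% of 13791 genes were, and 0 members were 2-fold lower, where 0.0725% were. The median ratio over all genes was 1.05.

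Endothelial genes rose less toward the opossum edge, with ratios of 1.70 (1.53 to 1.90) for CLDN5, 1.44 (1.35 to 1.54) for FLT1 and 1.25 (1.19 to 1.31) for SLC2A1. None of their intervals reached those of the meningeal genes. Median UMIs per cell were 588 within 100 µm and 988 beyond 200 µm, and the summed neuronal markers were 42.5 and 51.9. With each cell thinned to 300 UMIs the ratios were 7.79 for SLC47A1, 4.99 for LUM and 3.39 for DCN. Thinning keeps the expected level of each cell, leaves out cells below 300 UMIs and gives the others equal weight. It therefore cannot show the part of depth in these ratios, which was not tested. Choroid plexus markers, which belong to tissue of the ventricles, were at a sum of 0.453 near the edge and 0.264 beyond 200 µm, with 0 of 3 measured genes past 2-fold. The ratios of the measured genes had a median of 0.613 and ran from 0.534 to 1.74, so most were lower near the edge.

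**Figure D5:**
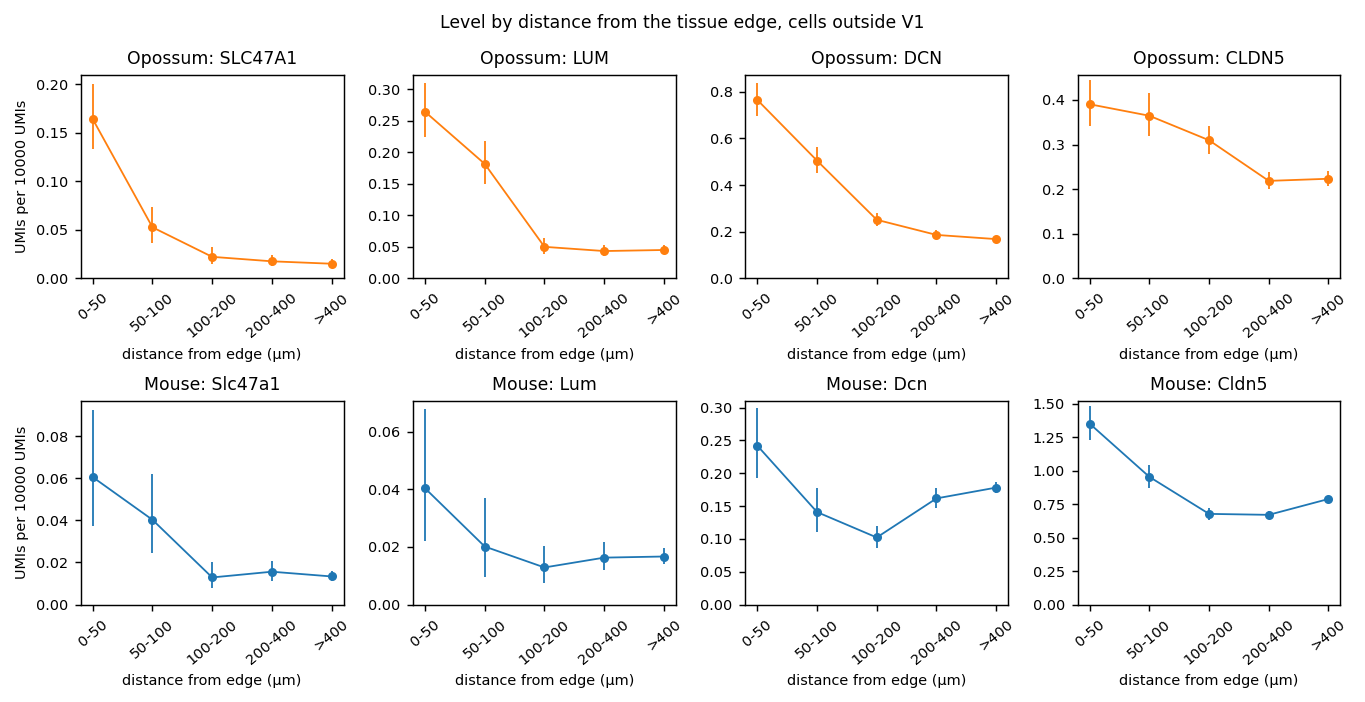
UMIs per 10000 UMIs (y axis) of Slc47a1, Lum, Dcn and Cldn5 by distance from the tissue edge in cells outside V1 (x axis, bands in µm), for the opossum (top) and the mouse (bottom); bars are exact Poisson 95% intervals. The 3 opossum meningeal genes fall steeply over the first 200 µm, and mouse Dcn is at 0.242 in the outermost band, 0.102 between 100 and 200 µm and 0.178 beyond 400 µm.

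In the mouse Dcn, Lum and Slc47a1 had profiles that differed from each other. Slc47a1 was at 0.0605 (0.0375 to 0.0925) within 50 µm and 0.0133 (0.0110 to 0.0160) beyond 400 µm, and its edge ratio was 3.49 (2.41 to 4.95) on 41 and 157 UMIs, just under the 200 UMIs required for the 2-fold rule. Lum had a ratio of 1.72 (1.07 to 2.63). Dcn had a ratio of 1.05 (0.884 to 1.24), with 66.2% of its UMIs beyond 400 µm, where 62.1% of all UMIs lay. Its level was highest in the outermost 50 µm, at 0.242 (0.193 to 0.300). It was at 0.141 (0.110 to 0.178) between 50 and 100 µm and 0.178 (0.169 to 0.187) beyond 400 µm. By the rule 0 mouse members were higher, where 0.961% of 17588 genes were, and 0 lower, where 0.637% were. With the band narrowed to 50 µm, Lum at 2.44 and Pecam1 at 2.06 passed. After thinning to 300 UMIs the ratio was 1.05 for Lum and 6.02 for Slc47a1.

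The mouse endothelial genes were modestly higher at the edge. Cldn5 was at 1.35 (1.23 to 1.48) in the outermost 50 µm and 0.788 (0.770 to 0.808) beyond 400 µm, with an edge ratio of 1.47 (1.38 to 1.58). The ratios were 1.41 (1.14 to 1.73) for Pecam1, 1.32 (1.21 to 1.43) for Slc2a1, 1.31 (1.19 to 1.43) for Flt1 and 1.08 (1.05 to 1.12) for Bsg, beside a median of 1.01 over all genes. Median UMIs per cell were 773 at the edge and 1191 beyond 200 µm, and the summed neuronal markers were 39.98 and 46.4. Oligodendrocyte markers summed to 21.0 at the edge and 46.2 beyond 200 µm, and their part in these ratios was not tested. Of the fibroblast and meningeal list 16 of 23 mouse genes were 2-fold higher at the edge (median 2.25) and 11 of 13 opossum genes (median 7.55). Among them Ptgds, which makes prostaglandin D2, was at 2.25 (2.18 to 2.33) and the matrix protein Mgp at 2.87 (2.62 to 3.13) in the mouse, and FBLN1, a matrix fibulin, at 7.55 (6.86 to 8.30) in the opossum.

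The genes whose level over 100 µm tiles was most like that of each member were named by Pearson r of log2 levels plus 1, over 11843 opossum and 14457 mouse genes. Tiles share a library and differ in depth, so r is a description. Opossum DCN ran with COL3A1 (r of 0.52) and COL1A1 (0.49), both fibrillar collagens, and with VIM (0.46), an intermediate filament. LUM ran with FBLN1 (0.42), VIM (0.42) and COL1A1 (0.41), and SLC47A1 with ITGBL1 (0.41) and the transporters SLC13A4 (0.40) and SLC22A8 (0.39). DCN and LUM correlated with each other at 0.38.

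Mouse Dcn had other companions. They were Nnat (0.34), Dio3 (0.27), a thyroid hormone deiodinase, and Fibcd1 (0.27), while Col1a2 had an r of 0.12 with Dcn and Lum of 0.11. Its 40 highest tiles lay a median of 430 µm from the edge, against 536 µm for the others, whereas the highest opossum DCN tiles lay 60.5 µm from the edge against 301 µm. The distance was not particular to Dcn among the mouse members. Their highest tiles lay at 428 µm for Slc47a1, 496 µm for Lum, 462 µm for Flt1 and 485 µm for Slc2a1. For Bsg, Pecam1 and Cldn5 the distances were 414, 346 and 183 µm. Mouse Lum ran weakly with Cped1, Slc6a13 and Bgn (0.19, 0.19 and 0.18), and Slc47a1 with Thbd (0.32), Slc26a2 (0.30) and Mgp (0.30). The last 2 mouse members rest on 236 and 224 UMIs in the section.

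The endothelial members had lower and more even correlations. Opossum FLT1 ran with IGFBP7 (0.34), a protein of vessels, and SEMA3G (0.31), CLDN5 with CRIP1 (0.31) and IGFBP7 (0.31), and SLC2A1 with IGFBP7 (0.33) and FLT1 (0.31). Mouse Flt1 ran with Cldn5 (0.21) and Apoe (0.20), and Cldn5 with Apoe (0.25) and mt-Rnr2 (0.24). Slc2a1 ran with Apod (0.22) and Vim (0.20), Pecam1 with Col1a2 (0.17), Cldn5 (0.14) and Apod (0.13), and Bsg with Cldn5 (0.15), Cpe (0.12) and Flt1 (0.12). Apoe is made mainly by astrocytes, whose endfeet cover the vessels.

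Members were also compared within cells and between neighbors. Opossum cells with a UMI of FLT1 (4650 cells) had CLDN5 at 0.692, other cells within 25 µm of them at 0.352 and the remaining cells at 0.188, a same-cell ratio of 3.68 (3.28 to 4.12). Cells with CLDN5 had FLT1 at 2.30, 1.25 and 0.664 in the same order, a ratio of 3.46 (3.16 to 3.78). Cells with DCN had LUM at 0.373, 0.225 and 0.0493, a ratio of 7.57 (5.80 to 9.76). These 3 pairs thus fell from the cell to its neighbors and to the rest of the section. Cells with SLC47A1 had LUM at 0.223 on 6 UMIs, their neighbors at 0.333 and the remaining cells at 0.0668, so this pair was highest in the neighbors, as was SLC47A1 around cells with LUM, at 0.0675 (4 UMIs), 0.114 and 0.0268. SLC47A1 was not higher in cells with FLT1, at 0.0315 against 0.0296, a ratio of 1.06 (0.626 to 1.71).

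In the mouse the same ratios were smaller. Cells with Cldn5 (7969 cells) had Flt1 at 0.756 against 0.422 in cells farther than 25 µm from them, a ratio of 1.79 (1.66 to 1.93), Pecam1 at a ratio of 1.97 (1.66 to 2.33) and Slc2a1 at 1.49 (1.39 to 1.60). Cells with Dcn had Lum at a ratio of 2.82 (1.39 to 5.16), on 11 UMIs. The 41629 cells with Bsg had ratios of 0.918 (0.836 to 1.01) for Flt1, 0.865 (0.805 to 0.930) for Cldn5, 0.742 (0.603 to 0.919) for Pecam1 and 0.877 (0.808 to 0.954) for Slc2a1, all but the first with intervals below 1. The reference was only 9326 cells, with a median of 972 UMIs. The 69053 neighbors of Bsg cells had lower levels of Cldn5, at 0.717 (0.698 to 0.736) against 0.792 (0.770 to 0.815). Flt1 was also lower there, at 0.453 (0.438 to 0.468) against 0.492 (0.475 to 0.510). Intervals of Bsg cells and neighbors overlapped for Slc2a1 (0.598 and 0.580) and Pecam1 (0.0838 and 0.0875). Past 2-fold were 20 of 30 ordered pairs in opossum cells and 9 in their neighbors, and 3 of 56 pairs in mouse cells and 1 in their neighbors. These counts had no UMI minimum, and the share over all genes was not computed, so they have no background to be read against. They include pairs on few UMIs, such as SLC47A1 in opossum cells with LUM at 2.52 (0.679 to 6.53) on 4 UMIs. After thinning to 300 UMIs the opossum counts were 22 and 21, and those of the mouse 20 and 6, on far fewer UMIs. Cells with a UMI of a member were deeper than the rest, for example with a median of 1129.5 against 877 UMIs for FLT1 and 1322 against 1139 for Cldn5.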

How the data were processed

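Stereo-seq was analysed in 2 samples, 1 section per species. Using SAW, the Stereo-seq workflow, and aligning tissue images by hand, the authors mapped mouse reads to GRCm39 and opossum reads to their own genome version, in which 3′ gene ends were lengthened. The deposited values are UMI counts per gene and segmented cell without normalization, with V1 regions and subclass labels. Longer gene ends can raise the counts of the genes concerned in the opossum only.

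Counts were summed over cells with at least 50 genes and 100 UMIs and given per 10000 UMIs with exact Poisson intervals. Ratios have exact conditional binomial intervals and shares Clopper-Pearson intervals, all at 95%. A count of 0 was bounded at 3 UMIs of the group. Past 2-fold was the rule for calls, among genes with at least 50 UMIs in V1 or 200 UMIs in the section. Depth was cut into 10 bins along each region. The edge mask used a grid of 25 µm, and tiles measured 100 µm. For each member the 3 genes with the highest tile correlation were named, and of each marker list the counts and up to 4 genes with the most UMIs. Values of some genes chosen in this way are not given here. The members, lists and comparisons were chosen with earlier results of these data known. The ratio method was tested on simulated data for the outside over inside comparison. There 3-fold higher genes were recovered at 100% in the opossum (14693 genes) and 100% in the mouse (18496 genes). Genes 3-fold lower were recovered at 100% and 98%, and 0.069% and 0.0711% of unchanged genes were called. The simulated counts were independent Poisson draws, the model that the intervals assume. They therefore cannot show how spatial clustering or tissue composition affects the calls. Analyses were run in Python 3.11.15 with pandas 2.3.3, matplotlib 3.10.9, scipy 1.17.1 and numpy 2.4.6. Mouse coordinates are from the GENCODE annotation of GRCm39. Alternatives were other cell filters, the mean over cells, thinning to 300 UMIs, other bands, tiles and radii, and leaving out each V1 region.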

Additional observations from a re-analysis of the deposited data

How the results depend on the processing

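No paired analysis was possible because each species has 1 sample. Of 436 alternatives of single-gene ratios, 391 stayed within the interval of the reported value, 44 moved beyond it and 1 reversed, opossum DCN under the endothelial label, which was 0 without V1 region 1 and ranged from 0 to 3.20 over the regions left out. Members 2-fold higher under the opossum endothelial label numbered 4, and 1 against other non-neuronal cells; leaving out a region gave 3 to 4. Opossum members 2-fold higher in upper V1 went from 0 to 1 with the outer 3 bins at each end. Opossum members 2-fold higher outside V1 numbered 1, then 2 by the mean over cells and 0 over 200 µm from the edge, and 0 to 1 without a region. Mouse members 2-fold higher at the edge went from 0 to 2 within 50 µm and 1 on a 50 µm grid. Thinning took opossum neighbor pairs from 9 to 21, mouse same-cell pairs from 3 to 20 and mouse neighbor pairs from 1 to 6; a radius of 50 µm gave 5 and 2 in the mouse. Of the 18 opossum and 24 mouse companion genes, 8 and 15 were kept with 200 µm tiles and 7 and 9 with Spearman's rho. The cause of these moves was not tested. The counts of 3 mouse genes under the endothelial label and 3 outside V1 were the same in every alternative run. Labels of the first round were not run in the opossum, where 0 endothelial labels were given in that round. Depth limits Lum and Slc47a1 most, with at most 30 UMIs in V1 in either species.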

Other observations

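The tiles richest in a member were looked at for other vascular and meningeal genes, a measure added after the member values had been seen. These tiles were chosen by the member's level, so the values are a description. In the 33 opossum tiles with the most DCN, the matrix gene MGP was at 6.21 UMIs per 10000 against 0.0339 elsewhere, a ratio of 183 (153 to 219), COL3A1 at 5.28 against 0.0950, a ratio of 55.6 (47.2 to 65.1), and COL1A1 at a ratio of 29.9 (25.1 to 35.3). The fibroblast and meningeal list as a whole was at 35.0 against 2.30 there, the mural list at 19.8 against 2.06, and the general neuronal markers at 23.3 against 51.8.

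In the 40 mouse tiles with the most Dcn the same lists differed less. The fibroblast and meningeal list was at 20.6 against 5.73, the mural list at 2.25 against 1.79 and the neuronal markers at 38.0 against 46.6. Col1a2 had a ratio of 4.27 (2.79 to 6.27) and Ptgds of 6.13 (5.85 to 6.43), while Slc17a7, the vesicular glutamate transporter of cortical and hippocampal neurons, was at 10.2 against 10.0, a ratio of 1.02 (0.965 to 1.07). Oligodendrocyte markers were at 15.7 against 40.9.

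In the mouse tiles richest in Cldn5 the fibroblast and meningeal list was at 39.5 against 5.77. Of this list Slc6a13, a transporter of leptomeningeal cells, had the highest ratio listed, 18.2 (12.3 to 26.0), while Col6a1 at 0.599 and Col5a1 at 0.741, on 7 UMIs each, were below 1. These tiles lay a median of 183 µm from the tissue edge, against 538 µm for the others. In the opossum the tiles richest in CLDN5 lay 79.0 µm from the edge against 300.4 µm, with COL3A1 at a ratio of 32.1 (26.1 to 39.3).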
